A study of Bos taurus with 40 samples.

Results

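The genes described here build motile cilia or direct the differentiation of the multiciliated cells that carry them, and they were followed through bovine endometrium, the lining of the uterus, on 4 days after estrus and in both uterine horns. The list named 36 genes: 8 regulators of multiciliation and centriole amplification, 22 parts of the axoneme, 2 factors that assemble dynein arms and 4 other genes of ciliated cells. By name, 35 of them were found among the 32671 genes of the table, and 34 passed the filter on low counts among 20356 genes tested. DEUP1, a scaffold protein of the deuterosome, had no entry under that name. PIFO, a protein of the ciliary base, had an entry that never held more than 2 reads in a library and was not tested.

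A motile cilium is a whip-like cell projection whose core, the axoneme, holds a ring of doublet microtubules around a central pair. Outer and inner dynein arms slide the doublets against each other, while radial spokes, the central pair and the nexin-dynein regulatory complex shape the beat. A multiciliated cell leaves the cell cycle, copies its centrioles many times around deuterosomes and elsewhere, and grows a cilium from each. GMNC and MCIDAS start that programme with the E2F factors, CCNO and the deuterosome genes carry out centriole amplification, and FOXJ1, MYB and the RFX factors switch on the genes of the axoneme. In cattle, ciliated cells lie scattered among the secretory cells of the luminal and glandular epithelium of the uterus, and they line the oviduct more densely.

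Endometrium was collected from synchronized heifers that were killed on day 5, 7, 13 or 16, from the horn on the side of the corpus luteum (ipsilateral) and from the opposite horn (contralateral), so that 8 groups of 5 libraries were compared. No genotype and no treatment other than synchronization set the groups apart, and age and breed were not given in the sources used here. The study's design text counts the days from estrus, whereas the label of each sample writes them as days of pregnancy, and the sources used here do not say whether the heifers were bred. Each title carries a tag, taken here as that of the heifer, which occurs in both horns of its day. RNA came from a homogenate of all endometrial layers. Fewer ciliated cells and less RNA per ciliated cell cannot be told apart in such bulk samples.

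The libraries held about 27026000 to 64365000 reads assigned to named genes, and 37 of the 40 stood nearest to the mean of their own day over all genes. Markers of epithelium were present in every library, and no marker of the 16 was at 0: their summed level ran from 1107 CPM (reads scaled to a library of 1000000) in the ipsilateral horn on day 5 to 2598 CPM in the contralateral horn on day 13. OVGP1, the oviduct glycoprotein, had group means between 2.74 and 7.05 CPM. A pair of day 7 libraries stood apart for the ciliary genes: the ipsilateral library 5-117 and the contralateral library 6-338 were each the highest of their group for 34 of the 34 genes tested. They also had the lowest share of mitochondrial DNA reads of their groups, at 0.124 and 0.112% against 0.238 to 0.399% and 0.237 to 0.329% in the rest, where the day 5 groups had 0.0812 to 0.165% and 0.0817 to 0.154%. Over all genes the root mean square distance of 6-338 in log2 CPM was 0.797 to the rest of its own day and 0.816 to day 5, and that of 5-117 was 0.735 and 0.895. What part these differences have in the ciliary values was not tested. The library 2-1337 was the lowest of its day 7 group for 26 of the 34 in both horns. Deviations from the group means over all genes were compared between the horns of a day: for 15 of the 20 ipsilateral libraries the closest contralateral library carried another tag, and each of the 20 contralateral libraries was closest to exactly 1 ipsilateral library. For the ipsilateral library 5-117 the closest was the contralateral 6-338 (r = 0.665 across genes, against -0.218 with the contralateral 5-117). Whether tags were exchanged between the horns was not tested, and the tags were not used to pair the horns. The counts, medians and calls of the 34 genes that rest on day 7 are given with all libraries first. The main ones are then given without 5-117 and 6-338. These libraries were picked as the highest of day 7, so leaving them out lowers day 7 by construction. Falls from day 5 to day 7 found in that way are no separate support for a decline.

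**Figure D1:**
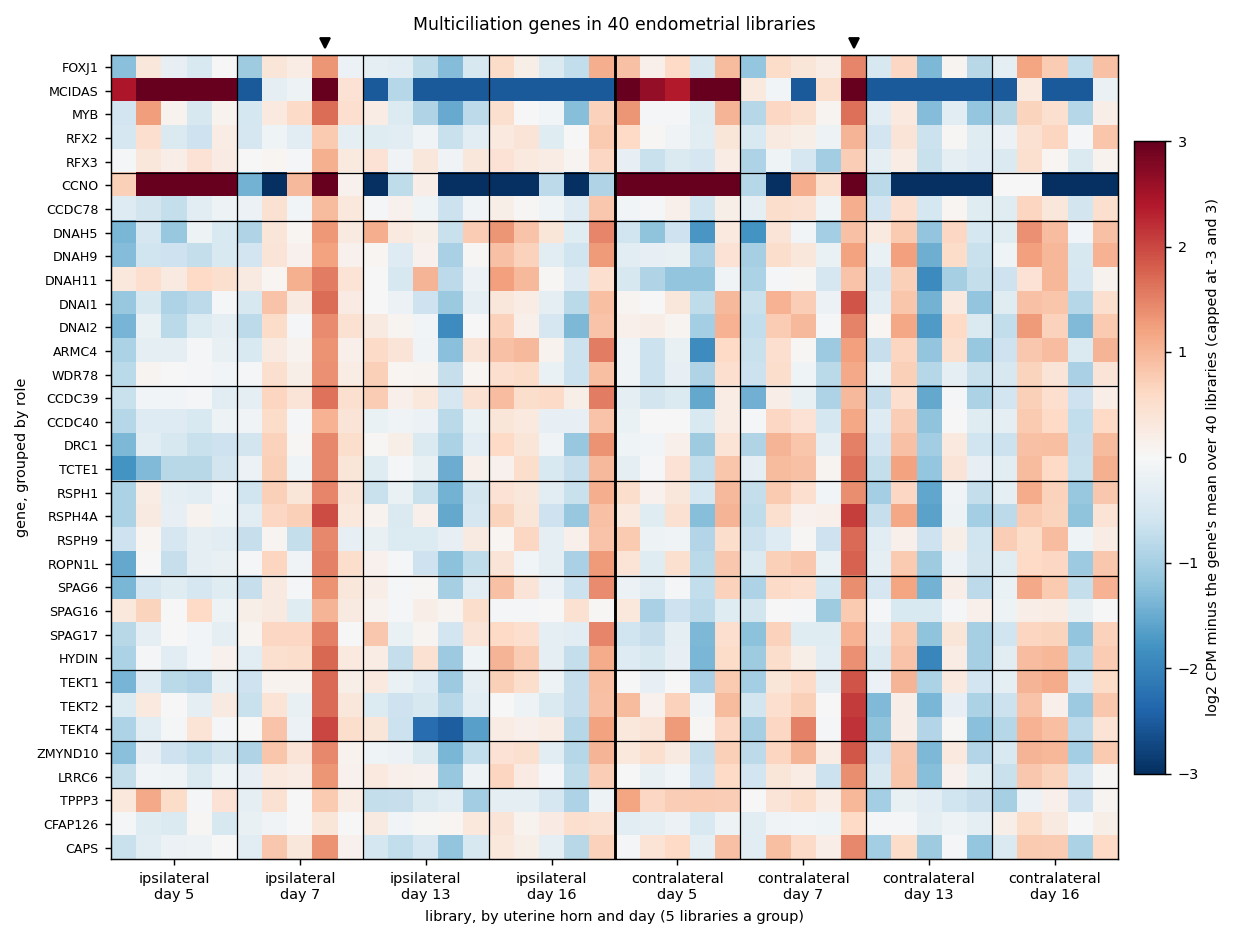
Levels of the 34 tested genes (vertical axis, grouped by role) in the 40 libraries (horizontal axis, grouped by horn and day), as log2 CPM minus the mean of the gene over all libraries; black triangles mark the ipsilateral day 7 library 5-117 and the contralateral day 7 library 6-338. MCIDAS is high on day 5 in all 10 libraries and on day 7 in the marked libraries alone; CCNO looks alike, except that the ipsilateral day 5 library 1-315 (0.207 CPM) lies within the range of the unmarked day 7 libraries (up to 0.271 CPM), while most axoneme genes are lowest on day 5 or day 13.

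MCIDAS and CCNO had their highest means on another day than the parts of the axoneme. MCIDAS and CCNO had their highest mean on day 5 in both horns and were nearly absent from day 13 on. Of the other 5 tested regulators, 3 had their highest mean on day 7 and 2 on day 16 in the ipsilateral horn, and 2 and 3 in the contralateral horn. Without libraries 5-117 and 6-338, FOXJ1, RFX2, RFX3 and CCDC78 had their highest mean on day 16 in both horns. MYB then had its highest mean on day 7 in the ipsilateral and on day 5 in the contralateral horn. Of the 22 axoneme genes, 16 had their highest mean on day 7 in the ipsilateral horn and 12 in the contralateral horn, with the other 6 and 10 highest on day 16. The day 7 maximum rested on libraries 5-117 and 6-338: without them 5 of the 22 in the ipsilateral horn (DNAI1, TCTE1, RSPH4A, ROPN1L and TEKT4) and 3 in the contralateral horn (DNAI1, TCTE1 and ROPN1L) had their highest mean on day 7, and 16 in each horn had it on day 16. Over all libraries, their lowest mean was that of day 5 for 16 of the 22 in the ipsilateral horn and for 13 in the contralateral horn (15 and 12 without the 2 libraries), and for most of the others that of day 13. Taken as the median over the 22 genes of the centred log2 CPM of a library, the group mean of the axoneme genes was -0.41, 0.40, -0.25 and 0.23 on days 5, 7, 13 and 16 in the ipsilateral horn. In the contralateral horn it was -0.16, 0.25, -0.27 and 0.24. The same value for the 7 tested regulators was 0.02, 0.22, -0.50 and -0.02 in the ipsilateral horn and 0.33, 0.26, -0.55 and -0.01 in the contralateral horn. Without 5-117 and 6-338 the day 7 values of the axoneme genes were 0.13 and -0.04, in the same order of horns. Those of the regulators were -0.05 and -0.04. With day 7 alone trimmed in this way, day 16 had the highest value of the axoneme genes in both horns. On ipsilateral day 16 the 5 libraries stood at -0.66, -0.25, 0.45, 0.59 and 1.03 for these genes. The highest, 8-245, was the top library of its group for 29 of the 34 genes, and no day 16 library was left out. These are descriptions over genes that share the same libraries.

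**Figure D2:**
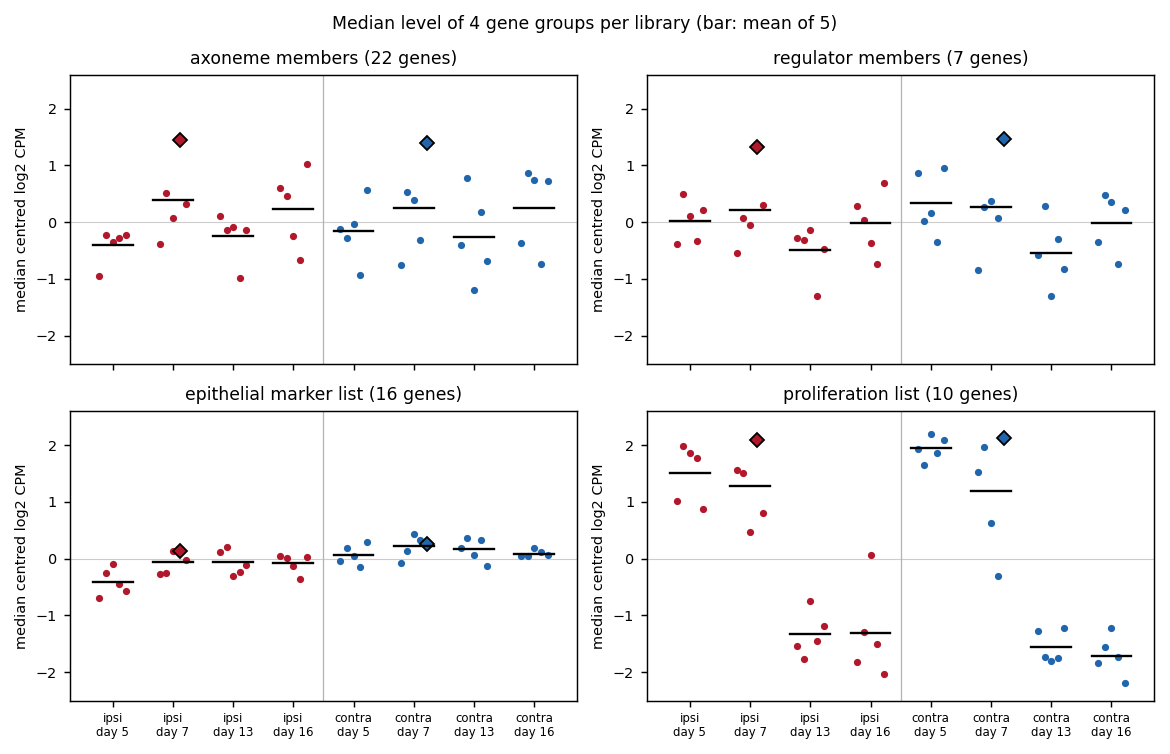
Median centred log2 CPM per library (vertical axis) of the 22 axoneme genes, the 7 tested regulators, 16 epithelial markers and 10 proliferation markers, by horn and day (horizontal axis). Points are libraries, bars are group means, and the larger symbols are libraries 5-117 (ipsilateral) and 6-338 (contralateral) of day 7. Proliferation markers drop between day 7 and day 13 in both horns, from group means of 1.28 and 1.18 to -1.34 and -1.56, and the axoneme genes move by less than 1 unit between any of the days.

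Between day 5 and day 7 in the ipsilateral horn, 8 of the 34 genes rose and none fell, where 15.9% of all genes tested rose and 14.8% fell. The log2 fold change was positive for 31 of the 34, with a median of 0.84, or 0.85 without MCIDAS and CCNO, beside -0.01 over all genes. The same step of the contralateral horn gave no call by edgeR's quasi-likelihood test (Benjamini-Hochberg adjusted p below 0.05), 3 genes at an unadjusted p below 0.05 and no call by DESeq2. There 10.1% of all genes rose and 9.65% fell, and the median was 0.45, or 0.46 without MCIDAS and CCNO, beside -0.00 over all genes. Between day 7 and day 13, 6 of the 34 fell in each horn and none rose. In the ipsilateral horn 14.5% of all genes rose and 15.3% fell at this step, and the median of the 34 was -0.76 (-0.72 without MCIDAS and CCNO) beside 0.01. For the contralateral horn 15.8% rose and 17.1% fell, and the median was -0.54 beside 0.01. The counts at the steps to day 13 were near the background share. Both steps use the day 7 libraries, so a high day 7 library raises the first and lowers the second.

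Without libraries 5-117 and 6-338 the medians of the 34 moved closer to 0 at every step that uses day 7. From day 5 to 7 the median was 0.50 in the ipsilateral horn, with 27 of the 34 positive, and 0.06 in the contralateral horn, with 20 positive and 14 negative. From day 7 to 13 it was -0.42 and -0.15, with 28 and 21 negative. All genes then had medians of -0.03, 0.01, 0.03 and 0.06 at the same 4 steps.

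From day 13 to day 16 no gene passed by edgeR in either horn. In the ipsilateral horn 4 of the 34 had an unadjusted p below 0.05 and DESeq2 called none, where 0.452% of all genes rose and 0.570% fell. Of the contralateral tests 2 had an unadjusted p below 0.05 and DESeq2 called none, where 0.432% rose and 0.899% fell. The median log2 fold change at this step was 0.55 in the ipsilateral horn and 0.51 in the contralateral horn, where all 34 were positive, beside a median of 0.00 over all genes in both horns. Asking for any difference among the 4 days, 15 of the 34 passed in the ipsilateral horn, beside 57.3% of all genes, and 5 in the contralateral horn, beside 55.2%. Of the 15 ipsilateral calls, those for MCIDAS, CCNO, TPPP3, CFAP126 and TCTE1 held without any single library. The other 10 each ended without at least 1 library, which was 5-117 for all of them but DNAH5.

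With the same 2 libraries left out, the first ipsilateral step had 3 calls (TCTE1 higher, MCIDAS and CCNO lower), where 14.6% of all genes rose and 14.6% fell, and the first contralateral step 2 (MCIDAS and CCNO lower), where 12.2% rose and 9.14% fell. The step to day 13 then had 2 calls in the ipsilateral horn (TPPP3 and CAPS) and 1 in the contralateral horn (TPPP3), all lower, where 13.2% and 14.5% of all genes fell. Proliferation markers stood high in the same libraries: the median centred log2 CPM of the 10 markers was 2.09 in 5-117 and 2.12 in 6-338, the highest of their groups. By summed CPM of the 10 markers neither was the highest: 5-117 had 859 CPM, where the rest of its group had 586 to 898 CPM, and 6-338 had 769.9 CPM, where the rest had 572 to 911 CPM. The part of cell proliferation in the ciliary values was not tested.

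**Figure D3:**
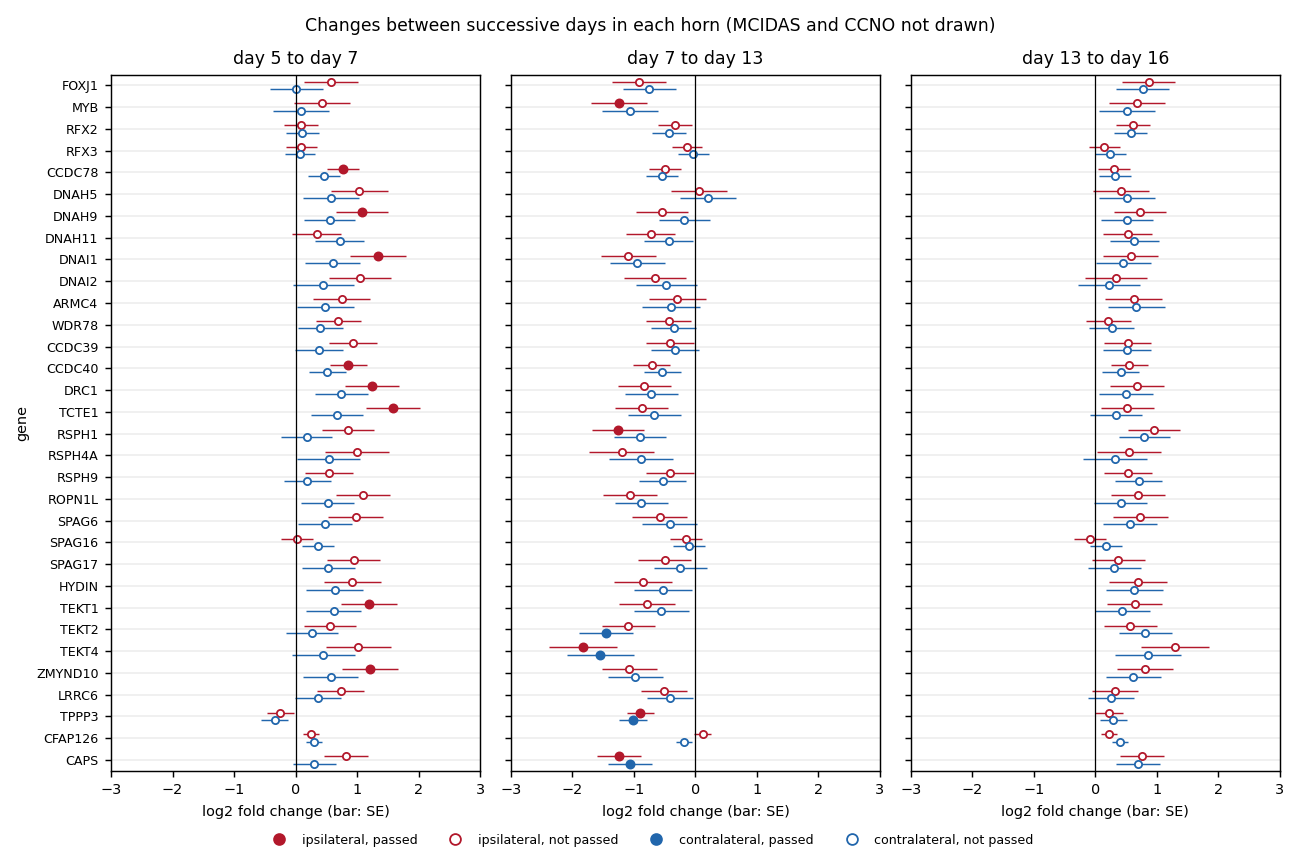
Log2 fold change with its standard error (horizontal axis) of 32 tested genes (vertical axis) for the 3 steps between days, with the ipsilateral and the contralateral horn in different colours; filled symbols passed at an adjusted p below 0.05. MCIDAS and CCNO, whose later groups hold few or no reads, are not drawn. Nearly all genes lie above 0 from day 5 to 7, below 0 from day 7 to 13 and above 0 from day 13 to 16, with few filled symbols, and TPPP3 differs by lying below 0 in the first step.

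MCIDAS, the coiled-coil coactivator that starts multiciliation together with E2F factors, was read in all 10 libraries of day 5. The 5 ipsilateral libraries held 15, 19, 40, 54 and 400 reads on day 5 and 0, 2, 2, 3 and 52 reads on day 7. On day 13 the ipsilateral group held 1 read in all, and on day 16 none. The contralateral libraries held 13, 18, 28, 91 and 220 reads on day 5, 0, 2, 3, 3 and 66 reads on day 7, none on day 13 and 5 in all on day 16. Apart from the libraries 5-117 (52 reads) and 6-338 (66 reads), no day 7 library reached the lowest count of day 5. Pooled over the group and set on the CPM scale, day 5 exceeded day 7 by 7.45-fold (95% counting interval 5.68 to 9.92) in the ipsilateral horn and by 4.64-fold (95% counting interval 3.61 to 6.05) in the contralateral horn. Day 5 was at least 149.9-fold higher than day 16 in the ipsilateral horn and at least 123-fold higher than day 13 in the contralateral horn, with a floor of 3 counts over the group. A single library held most of the reads of each day 5 group, 3-175 in the ipsilateral and 1-315 in the contralateral horn. Without it, day 5 exceeded day 7 by 2.74-fold (1.996 to 3.79) and 2.37-fold (1.78 to 3.17), and the bounds were 55.1-fold and 62.8-fold. Over all genes, the contralateral 1-315 was the closest match of the ipsilateral 3-175 (r = 0.629, against -0.211 with the contralateral 3-175). Whether these libraries came from the same heifer, so that the horns repeat each other for MCIDAS and CCNO, was not tested. Without the highest day 7 library alone, 5-117 and 6-338, day 5 exceeded day 7 by 49.1-fold (23.7 to 123) in the ipsilateral and 33.98-fold (17.1 to 79.3) in the contralateral horn. With the highest library left out on both days, the ratios were 18.04-fold (8.51 to 45.8) and 17.3-fold (8.57 to 40.9). The intervals cover counting error alone.

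The test for any difference in MCIDAS among the 4 days gave an adjusted p of 7.48e-05 in the ipsilateral horn and 0.000118 in the contralateral horn. From day 5 to day 7 the adjusted p was 0.07402 and 0.152, which missed the threshold. Without libraries 5-117 and 6-338 it was 0.000623 and 0.00103, which passed. These were left out as the highest of day 7, while the highest day 5 libraries stayed in. That choice favours a fall, so the pass is no separate support for one. From day 7 to day 13 MCIDAS fell, with an adjusted p of 0.0363 and 0.00917. Neither call remained without 5-117 and 6-338 (0.293 and 0.0825). Leaving out any single day 13 library also ended the ipsilateral call, with adjusted p-values between 0.0581 and 0.0735. The step from day 13 to 16, between groups of 0 to 5 reads, gave adjusted p-values of 0.893 and 0.689. The gene entered the test through the groups where it is high, so its passing the filter and its decline are not separate observations.

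CCNO, a cyclin-like protein needed to amplify centrioles, lies next to MCIDAS on chromosome 20 in the RefSeq gene table of ARS-UCD2.0, with CDC20B on the other side of MCIDAS. Its ipsilateral libraries held 7, 34, 57, 57 and 762 reads on day 5 and 0, 1, 4, 8 and 85 on day 7, and 6 and 4 reads in all on days 13 and 16. The contralateral libraries held 50, 52, 96, 229 and 374 reads on day 5 and 0, 2, 5, 9 and 144 on day 7, and 2 and 8 reads in all on days 13 and 16. As for MCIDAS, the highest day 7 counts came from 5-117 and 6-338. On the CPM scale, day 5 exceeded day 7 by 7.79-fold (95% counting interval 6.32 to 9.69) in the ipsilateral horn and by 4.65-fold (95% counting interval 3.92 to 5.55) in the contralateral horn. Day 5 exceeded day 13 by 117-fold (95% counting interval 53.4 to 319) and 399.9-fold (95% counting interval 110.4 to 3308), and day 16 by 195-fold (95% counting interval 75.99 to 718) and 97.3-fold (95% counting interval 49.1 to 226), in the same order of horns. Library 3-175 held 762 of the 917 ipsilateral reads of day 5, and without it day 5 exceeded day 7 by 1.996-fold (1.54 to 2.598), day 13 by 29.9-fold and day 16 by 50.02-fold. Leaving out 5-117 and 6-338 alone gave 45.9-fold (26.7 to 86.5) in the ipsilateral and 36.8-fold (22.5 to 64.7) in the contralateral horn. With the highest library of both days left out, day 5 exceeded day 7 by 11.8-fold (6.68 to 22.6) in the ipsilateral and 24.7-fold (15.01 to 43.5) in the contralateral horn.

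For CCNO, the test of any difference among days gave an adjusted p of 5.67e-05 in the ipsilateral horn and 1.58e-05 in the contralateral horn. Like MCIDAS, CCNO passed the filter through the groups where it is high and held 8 reads or fewer per group from day 13 on, so these tests are no separate support for its decline. The first step gave 0.0693 and 0.133, and without the libraries 5-117 and 6-338 CCNO fell, with 0.000659 and 0.000587. As for MCIDAS, leaving out the highest day 7 libraries favours a fall and is no separate support for one. In those remaining 4 libraries per horn the day 7 reads summed to 13 and 16 for CCNO and to 7 and 8 for MCIDAS. The step to day 13 gave 0.05097 in the ipsilateral horn, just above the threshold, and 0.00457 in the contralateral horn, where the call ended without 6-338 (0.187). Between days 13 and 16 the adjusted p was 0.943 and 0.822. CDC20B, a deuterosome protein from the list of other regulators, had ipsilateral means of 2.16 ± 3.31, 0.566 ± 1.03, 0 and 0 CPM on days 5, 7, 13 and 16 (SD, n = 5). Its contralateral means were 1.903 ± 2.43, 0.609 ± 1.23, 0.01103 ± 0.0247 and 0.0236 ± 0.0528 CPM. All 3 neighbours thus had their highest mean on day 5 and means of at most 0.0477 CPM from day 13 on.

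**Figure D4:**
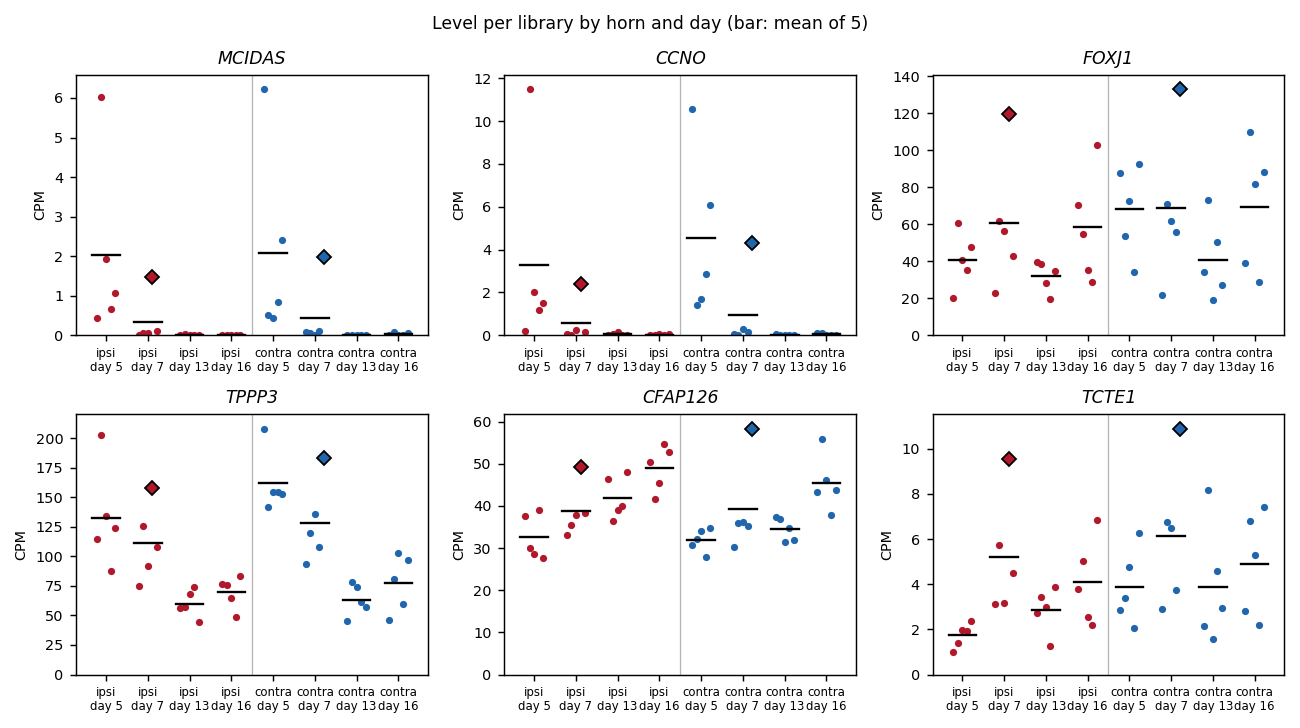
CPM (vertical axis, a scale for each gene) in every library of MCIDAS, CCNO, FOXJ1, TPPP3, CFAP126 and TCTE1 by day (horizontal axis) and horn; bars are means and diamonds mark libraries 5-117 (ipsilateral) and 6-338 (contralateral) of day 7. MCIDAS and CCNO are near 0 on days 13 and 16, FOXJ1 groups overlap on all days, TPPP3 has higher means on days 5 and 7 than on days 13 and 16, and CFAP126 has its highest mean on day 16.

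FOXJ1, the forkhead factor that switches on genes of motile cilia, gave no call at any step. In the ipsilateral horn its 5 libraries held 19.95, 35.04, 40.4, 47.8 and 60.5 CPM on day 5 and 22.8, 42.7, 56.3, 61.8 and 119.7 CPM on day 7. They held 19.5, 28.3, 34.6, 38.5 and 39.3 CPM on day 13 and 28.7, 35.5, 54.5, 70.6 and 103 CPM on day 16. Neighbouring days overlapped throughout, and the highest day 7 value was that of 5-117. Its contralateral means were 68.1 ± 24.3, 68.5 ± 40.5, 40.7 ± 21.6 and 69.5 ± 34.3 CPM (SD, n = 5) on days 5, 7, 13 and 16. The ipsilateral log2 fold changes were 0.57 ± 0.43, -0.92 ± 0.44 and 0.87 ± 0.44 (SE), with adjusted p-values of 0.329, 0.1104 and 0.434. The contralateral log2 fold changes were 0.01 ± 0.43, -0.75 ± 0.43 and 0.77 ± 0.43, with adjusted p-values of 0.992, 0.192 and 0.4899.

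MYB, a transcription factor of early multiciliated cells that also acts in proliferating cells, fell in the ipsilateral horn from day 7 to day 13. The 5 libraries held 12.3, 21.7, 25.3, 26.5 and 56.5 CPM on day 7 and 6.22, 9.5001, 10.3, 13.4 and 20.7 CPM on day 13, and the groups overlapped (log2 fold change -1.25 ± 0.46 (SE), 2.37-fold lower, adjusted p = 0.0368). The call ended without library 5-117 (adjusted p = 0.1896), as it did without any 1 of the day 13 libraries 5-140, 5-167, 6-203 and 8-275 (up to 0.103). The contralateral step was -1.07 ± 0.46 and did not pass (adjusted p = 0.06902). The step from day 5 to 7 was 0.43 ± 0.45 (adjusted p = 0.498) in the ipsilateral and 0.09 ± 0.45 (0.915) in the contralateral horn. From day 13 to 16 MYB gave 0.67 ± 0.45 (0.616) and 0.52 ± 0.45 (0.713). In the ipsilateral day 5 group, library 3-175 held 42.8 CPM of MYB and the other 4 held 11.98, 12.7, 19.03 and 19.1 CPM.

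RFX2 and RFX3, which bind the X-box of ciliary promoters, gave no call between days in either horn with all libraries. RFX2 had means between 12.8 and 19.6 CPM in the ipsilateral and between 14.4 and 21.4 CPM in the contralateral horn, lowest on day 13 and highest on day 16 in both. Its ipsilateral steps were 0.09 ± 0.27, -0.34 ± 0.28 and 0.62 ± 0.28 on the log2 scale, with adjusted p-values of 0.836, 0.3798 and 0.341. Its contralateral steps were 0.11 ± 0.27, -0.44 ± 0.28 and 0.57 ± 0.28, with adjusted p-values of 0.818, 0.237 and 0.381. RFX3 had means of 37.7 ± 4.66, 40.2 ± 14.97, 36.6 ± 6.65 and 40.5 ± 5.85 CPM on days 5, 7, 13 and 16 in the ipsilateral horn (SD, n = 5). RFX3 gave ipsilateral steps of 0.09 ± 0.25, -0.14 ± 0.25 and 0.15 ± 0.25, with adjusted p-values of 0.806, 0.725 and 0.891. Contralateral RFX3 gave 0.07 ± 0.25, -0.04 ± 0.25 and 0.25 ± 0.25, with adjusted p-values of 0.873, 0.931 and 0.761.

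CCDC78, a coiled-coil protein of deuterosomes, rose in the ipsilateral horn from day 5 to day 7, the direction of the axoneme genes and not of CCNO. Its libraries held 10.998, 12.4, 13.8, 14.4 and 16.2 CPM on day 5 and 16.1, 17.3, 22.6, 24.9 and 35.05 CPM on day 7, with overlap (log2 fold change 0.77 ± 0.26 (SE), 1.71-fold higher, adjusted p = 0.0222). The call for CCDC78 ended when any 1 of the libraries 3-175 or 4-184 of the ipsilateral day 5 group or 5-117 of the ipsilateral day 7 group was left out (adjusted p up to 0.09998). It also differed among the 4 days in the ipsilateral horn (adjusted p = 0.0495), a call at the threshold, which ended under RLE scaling among other settings (adjusted p = 0.0524). Contralateral means of CCDC78 ran from 16.6 CPM on day 13 to 24.2 CPM on day 7, with no call. The table also has an entry named CCDC67, an older symbol of DEUP1, which was not counted among the members. It had ipsilateral means of 3.61 ± 2.51, 3.99 ± 3.62, 1.47 ± 0.485 and 2.11 ± 1.33 CPM, and its largest step, from day 7 to day 13 (-1.44 ± 0.59, adjusted p = 0.0618), did not pass.

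Among the 7 genes of the dynein arms and their docking, DNAI1 and DNAH9 rose in the ipsilateral horn from day 5 to day 7 and none fell at any step. DNAI1, an intermediate chain of the outer arm, was at 3.84, 4.43, 4.88, 6.05 and 8.12 CPM on day 5 and at 6.03, 10.1, 10.3, 15.3 and 27.3 CPM on day 7 (log2 fold change 1.34 ± 0.45 (SE), 2.53-fold higher, adjusted p = 0.0224). The groups overlapped, and 5-117 held the highest value. The call for DNAI1 ended when any 1 of the libraries 1-315 of the ipsilateral day 5 group or 5-117 of the ipsilateral day 7 group was left out (adjusted p up to 0.119). DNAH9, an outer arm heavy chain, was at 26.3, 39.2, 42.01, 42.7 and 46.6 CPM on day 5 and at 43.3, 69.9, 70.7, 84.4 and 148 CPM on day 7 (log2 fold change 1.08 ± 0.42 (SE), 2.12-fold higher, adjusted p = 0.0491). Leaving out any 1 of 9 of the 10 libraries, all but the day 7 library 2-1337, ended the call for DNAH9, with adjusted p-values up to 0.181 (without 5-117).

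DNAH5, an outer arm heavy chain, had ipsilateral means of 25.6 ± 8.51, 52.5 ± 28.3, 54.9 ± 22.9 and 73.4 ± 32.96 CPM on days 5, 7, 13 and 16 (SD, n = 5). No single step of DNAH5 passed, but the test over the 4 days did (adjusted p = 0.0395), and it was the axoneme gene whose mean was higher on each later day in both horns. The call for DNAH5 ended when any 1 of the libraries 1-315, 3-175, 4-184 or 8-1350 of the ipsilateral day 5 group or 2-068, 3-155 or 8-245 of the ipsilateral day 16 group was left out (adjusted p up to 0.107). DNAH9 and DNAI1 also passed over the 4 days in the ipsilateral horn (adjusted p = 0.0437 and 0.0372). Without 5-117 and 6-338, DNAH5 passed in both horns (0.0203 ipsilateral, 0.0267 contralateral) and DNAH9 in the ipsilateral horn (0.0443). DNAI2, the other outer arm intermediate chain, ran from 11.9 to 24.8 CPM over the ipsilateral group means without a call. ARMC4, which docks outer arms, ran from 4.01 to 8.47 CPM, and WDR78, a WD-repeat dynein protein, from 22.1 to 35.7 CPM, also without a call. DNAH11, the heavy chain of outer arms near the cell, is described with the horns.

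The 4 genes of the rulers and the nexin-dynein regulatory complex included TCTE1, which had the lowest adjusted p of the 34 genes from day 5 to day 7 in the ipsilateral horn. TCTE1, a subunit of the regulatory complex, was at 1.004, 1.39, 1.95, 1.95 and 2.39 CPM on day 5 and at 3.103, 3.18, 4.495, 5.74 and 9.56 CPM on day 7 in the ipsilateral horn, so the groups did not overlap (log2 fold change 1.59 ± 0.44 (SE), 3.01-fold higher, adjusted p = 0.00608). The call held in each of the alternatives run, and without 5-117 and 6-338 the step was 1.25 ± 0.43 (adjusted p = 0.0275). Contralateral TCTE1 was at 3.86 ± 1.65 CPM on day 5 and 6.16 ± 3.14 CPM on day 7 (SD, n = 5), a step of 0.67 ± 0.43 that did not pass (adjusted p = 0.282). In the test of whether the horn difference changed among the days, none of the 34 genes passed by edgeR, none had an unadjusted p below 0.05, DESeq2 called none, and 0% of all genes passed. TCTE1 passed over the 4 days in the ipsilateral horn (adjusted p = 0.0138), also without the 2 libraries (0.0373).

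CCDC40, which with CCDC39 forms the ruler that spaces inner arms and spokes, was at 21.3, 28.2, 29.3, 29.6 and 34.7 CPM on day 5 and at 35.96, 36.8, 50.6, 56.6 and 79.4 CPM on day 7 in the ipsilateral horn, again without overlap (log2 fold change 0.86 ± 0.30 (SE), 1.81-fold higher, adjusted p = 0.0289). The call for CCDC40 ended when any 1 of the libraries 1-315 or 3-175 of the ipsilateral day 5 group or 2-371 or 5-117 of the ipsilateral day 7 group was left out (adjusted p up to 0.112). DRC1, another subunit of the regulatory complex, was at 12.5, 19.995, 20.9, 22.99 and 25.1 CPM and then at 21.9, 32.6, 46.04, 51.6 and 87.1 CPM (log2 fold change 1.23 ± 0.44 (SE), 2.35-fold higher, adjusted p = 0.0305), with overlap. The call for DRC1 ended when any 1 of the libraries 1-315, 7-300 or 8-1350 of the ipsilateral day 5 group or 5-117 of the ipsilateral day 7 group was left out (adjusted p up to 0.128). CCDC39 had the same direction at this step (0.94 ± 0.39) and did not pass (adjusted p = 0.0638). CCDC40 and DRC1 passed over the 4 days in the ipsilateral horn (adjusted p = 0.0341 and 0.0472), and without 5-117 and 6-338 neither did (0.0697 and 0.0931).

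Of the 4 radial spoke genes, RSPH1 fell in the ipsilateral horn from day 7 to day 13 and the others gave no call with all libraries. RSPH1, a protein of the spoke head, was at 6.92, 13.4, 13.8, 17.02 and 28.8 CPM on day 7 and at 3.92, 6.59, 6.61, 7.16 and 9.07 CPM on day 13, with overlap (log2 fold change -1.26 ± 0.42 (SE), 2.397-fold lower, adjusted p = 0.0219). The call for RSPH1 ended when any 1 of the libraries 5-117 of the ipsilateral day 7 group or 6-203 of the ipsilateral day 13 group was left out (adjusted p up to 0.109). RSPH1 also passed over the 4 days (adjusted p = 0.0442). RSPH4A and RSPH9, further spoke head proteins, had ipsilateral means of 8.23 to 18.9 CPM and of 2.82 to 4.46 CPM. In 5-117 and 6-338 both genes were well above the rest of their day 7 groups, at 40.3 and 43.6 CPM for RSPH4A and at 9.56 and 11.4 CPM for RSPH9. Without those libraries RSPH9 passed over the 4 days in the contralateral horn (adjusted p = 0.0197). ROPN1L, a spoke stalk protein, came nearest to a call from day 5 to 7 in the ipsilateral horn (1.10 ± 0.44, adjusted p = 0.05296).

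None of the 4 genes of the central pair passed between days in either horn. SPAG6 had ipsilateral means of 12.9 CPM on day 5 and 28.3 CPM on day 16, and SPAG17 of 7.56 CPM on day 5 and 14.5 CPM on day 7. HYDIN, a large central pair protein, had a mean of 67.3 ± 40.02 CPM on day 7 in the ipsilateral horn (SD, n = 5), of which 5-117 alone held 136 CPM. Without that library the mean of the other 4 was 50.1 ± 12.03 CPM, against 35.5 ± 9.15 CPM on day 5. SPAG16 had the smallest ratio of highest to lowest mean of the 22 axoneme genes in the ipsilateral horn, with means of 3.605 to 4.24 CPM.

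The tektins, filament proteins inside the doublet microtubules, gave calls at both steps. TEKT1 rose from 5.14, 7.42, 7.73, 10.4 and 11.6 CPM on day 5 to 8.81, 14.5, 14.6, 15.2 and 43.9 CPM on day 7 in the ipsilateral horn, with overlap (log2 fold change 1.19 ± 0.46 (SE), 2.29-fold higher, adjusted p = 0.0436). The call for TEKT1 ended when any 1 of the libraries 1-315, 3-175, 4-184 or 7-300 of the ipsilateral day 5 group or 5-117 of the ipsilateral day 7 group was left out (adjusted p up to 0.284). TEKT4 fell from day 7 to day 13 in both horns. Its ipsilateral libraries held 0.957, 1.07, 1.55, 1.97 and 4.36 CPM on day 7 and 0.182, 0.208, 0.339, 0.6799 and 1.39 CPM on day 13 (log2 fold change -1.83 ± 0.55 (SE), 3.56-fold lower, adjusted p = 0.0103). Its contralateral libraries held 0.533, 1.04, 1.66, 3.099 and 4.87 and then 0.447, 0.4597, 0.579, 1.11 and 1.24 CPM (log2 fold change -1.54 ± 0.54 (SE), 2.92-fold lower, adjusted p = 0.0247). The groups overlapped in both horns.

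The call for TEKT4 ended when library 5-117 of the ipsilateral day 7 group was left out (adjusted p = 0.0752). Contralaterally, the call for TEKT4 ended without any 1 of 5 libraries, among them 6-338 (adjusted p = 0.144) and 4-064 (0.0584) of day 7 and 4-1314 (0.0665), 5-167 (0.0633) and 8-275 (0.0635) of day 13. TEKT2 fell in the contralateral horn, from 3.64, 5.36, 7.67, 8.85 and 23.1 CPM on day 7 to 2.07, 2.15, 2.79, 4.52 and 6.16 CPM on day 13 (log2 fold change -1.46 ± 0.44 (SE), 2.75-fold lower, adjusted p = 0.00885), and the highest of the day 7 values was that of 6-338. The call for TEKT2 ended when library 6-338 of the contralateral day 7 group was left out (adjusted p = 0.114). The ipsilateral step of TEKT2 was -1.09 ± 0.43 (adjusted p = 0.05396). Over the 4 days TEKT4 passed in the ipsilateral horn (adjusted p = 0.0292) and TEKT2 in the contralateral horn (0.0283). The call for TEKT2 over the days ended without 6-338 of day 7 or without 4-1314, 5-167 or 8-275 of day 13 (adjusted p up to 0.0993). It also ended in a fit to the compared groups alone. With both 5-117 and 6-338 left out it passed (0.0421).

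Of the factors that preassemble dynein arms in the cytoplasm, ZMYND10 rose in the ipsilateral horn from day 5 to day 7, from 3.39, 4.84, 5.22, 5.55 and 6.83 CPM to 4.32, 8.73, 10.6, 14.3 and 21.8 CPM, with overlap (log2 fold change 1.21 ± 0.45 (SE), 2.31-fold higher, adjusted p = 0.0401). The call for ZMYND10 ended when any 1 of the libraries 1-315, 4-184, 7-300 or 8-1350 of the ipsilateral day 5 group or 2-371, 4-064 or 5-117 of the ipsilateral day 7 group was left out (adjusted p up to 0.155). It also passed over the 4 days in that horn (adjusted p = 0.0452). LRRC6 had ipsilateral means of 12.4 to 20.6 CPM and no call.

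TPPP3, a microtubule-bundling protein abundant in ciliated cells, had its highest mean on day 5 and fell from day 7 to day 13 in both horns. In the ipsilateral horn the libraries held 87.7, 114, 124, 134 and 203 CPM on day 5 and 74.9, 91.5, 108, 125 and 158 CPM on day 7. They held 44.6, 56.2, 57.2, 67.99 and 73.7 CPM on day 13 and 48.7, 64.9, 75.7, 76.9 and 83.2 CPM on day 16. Every day 7 library lay above every day 13 library (log2 fold change -0.90 ± 0.22 (SE), 1.86-fold lower, adjusted p = 0.00198). In the contralateral horn the day 7 libraries held 93.5, 108, 119, 136 and 183 CPM and the day 13 libraries 45.6, 56.8, 61.04, 73.9 and 78.5 CPM, again without overlap (log2 fold change -1.02 ± 0.22 (SE), 2.03-fold lower, adjusted p = 0.000476). Means on days 5 and 16 of the contralateral horn were 162 ± 26.2 and 77.3 ± 24.2 CPM (SD, n = 5).

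Both calls for TPPP3 held in each alternative run, and without 5-117 and 6-338 the steps were -0.72 ± 0.22 (adjusted p = 0.0123) and -0.81 ± 0.22 (adjusted p = 0.00409). From day 5 to 7 TPPP3 had a negative log2 fold change in both horns (-0.25 ± 0.22 and -0.34 ± 0.22, adjusted p = 0.4103 and 0.2898), where it was the member other than MCIDAS and CCNO with a negative value. Over the 4 days its adjusted p was 7.36e-05 in the ipsilateral and 5.95e-06 in the contralateral horn.

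CAPS, the calcium-binding protein calcyphosine, had its highest mean on day 7 and fell by day 13 in both horns. Its ipsilateral libraries held 55.5, 76.4, 88.8, 121 and 177 CPM on day 7 and 30.5, 41.8, 48.4, 48.9 and 49.9 CPM on day 13, without overlap (log2 fold change -1.24 ± 0.36 (SE), 2.37-fold lower, adjusted p = 0.00766). Its contralateral libraries held 55.3, 80.03, 103, 130.04 and 190.4 and 31.4, 32.97, 34.4, 66.9 and 103 CPM (log2 fold change -1.06 ± 0.36 (SE), 2.09-fold lower, adjusted p = 0.0206), with overlap. The ipsilateral call held in each alternative run, at -0.95 ± 0.35 (adjusted p = 0.0412) without the 2 libraries. The contralateral call ended without 6-338 (adjusted p = 0.101) or without any 1 of the day 13 libraries 4-1314, 5-167 and 8-275 (up to 0.0743). CAPS passed over the 4 days in the ipsilateral horn (adjusted p = 0.02003), not without 5-117 (0.0954).

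CFAP126, which helps position basal bodies, had a higher mean on each later day in the ipsilateral horn. Its means were 32.6 ± 5.37, 38.7 ± 6.16, 41.99 ± 4.99 and 49.03 ± 5.39 CPM on days 5, 7, 13 and 16 there (SD, n = 5). The contralateral means were 31.9 ± 2.78, 39.2 ± 10.96, 34.5 ± 2.83 and 45.4 ± 6.599 CPM. The test over the 4 days passed in both horns (adjusted p = 0.00302 and 0.00738) and in each alternative run, while no single step did. The largest step, from day 13 to 16 in the contralateral horn, was 0.40 ± 0.13 (adjusted p = 0.146). PIFO was at 0 in all ipsilateral libraries, and a second entry named PIFO-2, not counted among the members, had group means of 2.11 to 4.41 CPM without a call.

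Between the horns, 4 of the 34 genes were higher in the ipsilateral horn averaged over the 4 days: RFX3, DNAH11, CCDC39 and SPAG16. Over all genes 19.6% were higher and 18.6% lower in the ipsilateral horn, and the median of the 34 was -0.18. On day 5 DNAH11 and SPAG16 passed, where 12.3% of all genes were higher and 10.4% lower, and the median of the 34 was -0.37 beside -0.03 over all genes. On day 7 edgeR called none, 1 had an unadjusted p below 0.05 and DESeq2 called none (7.52% of all genes higher, 4.20% lower). Day 13 likewise gave no call by either tool and 1 unadjusted p below 0.05 (4.52% higher, 1.20% lower). Day 16 gave none by either tool and none below an unadjusted 0.05 (3.87% higher, 0.663% lower).

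DNAH11 had the largest average difference between the horns among the 34 genes. On day 5 the ipsilateral libraries held 7.13, 7.38, 8.203, 8.29 and 8.88 CPM and the contralateral libraries 2.58, 2.59, 3.11, 4.21 and 5.504 CPM, without overlap (log2 fold change 1.15 ± 0.41 (SE), 2.21-fold higher, adjusted p = 0.0375). Its means on days 7, 13 and 16 were 10.1, 6.12 and 8.82 CPM in the ipsilateral and 5.92, 4.38 and 6.803 CPM in the contralateral horn (average over days, log2 fold change 0.69 ± 0.20 (SE), 1.62-fold higher, adjusted p = 0.00565). SPAG16 was at 2.9997, 3.299, 4.16, 5.12 and 5.31 CPM and 1.699, 1.93, 2.19, 2.61 and 4.18 CPM on day 5 in the same order (log2 fold change 0.73 ± 0.26 (SE), 1.66-fold higher, adjusted p = 0.0396), with overlap. Averaged over days SPAG16 gave a log2 fold change 0.38 ± 0.13 (SE), 1.302-fold higher, adjusted p = 0.0185. With the tag as a replicate block, which takes a tag as the same heifer in both horns, the day 5 calls for both ended (adjusted p = 0.0573 for DNAH11 and 0.0761 for SPAG16). On day 5 the own tag was the closest match across the horns for 8-1350 alone (r = 0.312). Whether the block joins libraries of the same heifer was not tested.

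The day 5 call for DNAH11 also ended when any 1 of 7 of the 10 day 5 libraries was left out (1-315, 3-175, 7-300 or 8-1350 ipsilateral, 3-175, 4-184 or 7-300 contralateral, adjusted p up to 0.0963). That for SPAG16 ended without 1-315, 3-175 or 7-300 of the ipsilateral or 3-175, 4-184, 7-300 or 8-1350 of the contralateral group (up to 0.126). RFX3 had ipsilateral means of 37.7, 40.2, 36.6 and 40.5 CPM against 26.1, 27.4, 26.7 and 31.7 CPM in the contralateral horn on days 5, 7, 13 and 16 (average, log2 fold change 0.47 ± 0.12 (SE), 1.39-fold higher, adjusted p = 0.00255). It was thus higher on each day by its mean. CCDC39 likewise had 20.8, 39.8, 29.9 and 43.01 CPM against 18.3, 23.7, 18.8 and 26.9 CPM (average, log2 fold change 0.57 ± 0.19 (SE), 1.48-fold higher, adjusted p = 0.0181).

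Another measure moved with the horns: the share of reads in microRNA and tRNA genes was 0.0091 to 0.0162% in the ipsilateral and 0.0074 to 0.0137% in the contralateral libraries. With that share as a covariate all 4 average calls ended, with adjusted p-values of 0.277 for RFX3, 0.605 for DNAH11, 0.379 for CCDC39 and 0.667 for SPAG16. Each of the 4 held without any single library. Epithelial markers differed between the horns too: 10 of the 16 were lower in the ipsilateral horn on day 5 and none higher, with summed levels of 1107 to 1659.5 CPM against 1667 to 2198 CPM. The 4 genes were higher in the ipsilateral horn on average, whereas the median of the 34 was lower there, as those markers were on day 5. The part of epithelial content in these differences was not tested. Without 5-117 and 6-338, RFX3 was higher in the ipsilateral horn on day 7 (0.69 ± 0.21, adjusted p = 0.0263) and TCTE1 was lower there on average (-0.54 ± 0.21, adjusted p = 0.0397).

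**Figure D5:**
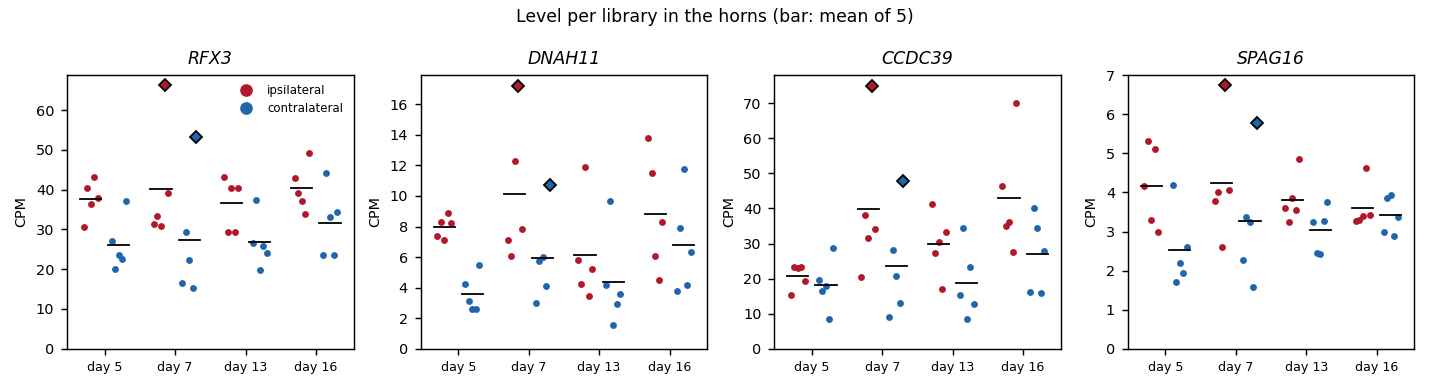
CPM (vertical axis, a scale for each gene) of RFX3, DNAH11, CCDC39 and SPAG16 in every library by day (horizontal axis), with the ipsilateral and contralateral horns side by side; bars are group means, and diamonds mark libraries 5-117 and 6-338 of day 7. The ipsilateral mean is higher than the contralateral mean for each gene on each day, and the groups fail to overlap for DNAH11 on day 5.

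Further genes of the motile cilium were read from lists made by function, and their counts stand beside the shares of all genes given above, of which 15.9% rose at the first and 15.3% fell at the second ipsilateral step. Of 20 other axonemal dyneins and dynein assembly factors tested, 9 rose and none fell from day 5 to 7 in the ipsilateral horn, and none rose and 6 fell from day 7 to 13. The contralateral horn had 2 that rose and none that fell, and then none rose and 3 fell. DNAAF3, an assembly factor, changed by 1.44 ± 0.39 (adjusted p = 0.00527) at the first ipsilateral step, and CCDC151, which docks outer arms, by -1.59 ± 0.43 (adjusted p = 0.004095) at the second. In the contralateral horn CCDC151 changed by -1.68 ± 0.43 (adjusted p = 0.00212) from day 7 to 13. Of 63 other axoneme genes, 21 rose and none fell at the first ipsilateral step, and 1 rose and 10 fell at the second. Contralaterally, 1 rose and 1 fell, and then 1 rose and 12 fell. At the steps to day 13 the falling shares of the 63 were near those of all genes, 15.3% and 17.1%, as was that of the 20 in the contralateral horn. Without 5-117 and 6-338, 5 of the 20 and 6 of the 63 rose and 1 of the 63 fell at the first ipsilateral step, and 2 of the 20 and 2 of the 63 fell and 2 of the 63 rose at the second. The contralateral counts were then 2 of the 20 higher, with 1 of the 63 higher and 1 lower, and at the second step 1 of the 20 lower, with 2 of the 63 higher and 2 lower. DNAJB13, a radial spoke protein, changed by 1.59 ± 0.34 (adjusted p = 0.000523) at the first ipsilateral step. GAS8, a subunit of the nexin-dynein regulatory complex, changed by 0.79 ± 0.20 (adjusted p = 0.00258) at the first ipsilateral and -1.64 ± 0.20 (adjusted p = 6.92e-08) at the second contralateral step.

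The 15 other regulators of multiciliation tested gave calls both ways with all libraries. At the first ipsilateral step 3 rose and 5 fell, and at the second 1 rose and 3 fell. The contralateral counts were 1 and 5, then 2 and 3. Without libraries 5-117 and 6-338 most calls at the first step were lower. In the ipsilateral horn 2 rose and 7 fell, where 14.6% of all genes rose and 14.6% fell. In the contralateral horn 2 rose and 8 fell, where 12.2% rose and 9.14% fell. At the second step 2 rose and 1 fell ipsilaterally, and 2 rose and none fell contralaterally. The rest of this paragraph again uses all libraries. CCNA1, a cyclin of multiciliated cells and of meiosis, changed by 1.27 ± 0.41 (adjusted p = 0.0187) and then by -1.71 ± 0.42 (adjusted p = 0.0017996) in the ipsilateral horn. E2F4, the partner of MCIDAS, changed by -0.28 ± 0.09 (adjusted p = 0.0196) at the second contralateral step. GMNC, the upstream geminin relative, had means of 9.34 ± 1.85, 6.94 ± 2.73, 4.51 ± 0.967 and 5.01 ± 3.65 CPM on days 5, 7, 13 and 16 in the ipsilateral horn (SD, n = 5). Genes that motile and primary cilia share gave calls both ways: of 35 genes of intraflagellar transport and the BBSome, 3 rose and 3 fell, then 5 rose and 1 fell, in the ipsilateral horn. The contralateral counts were none and 1, then 3 and 3, and averaged over days 13 were higher and 4 lower in the ipsilateral horn. Among 18 Notch pathway genes, whose signal restrains multiciliation, 5 rose and 4 fell at each of the 2 ipsilateral steps, and the contralateral counts were 1 and 2, then 5 and 4. JAG2, a Notch ligand, changed by 1.37 ± 0.13 (adjusted p = 5e-09) from day 5 to 7 in the ipsilateral horn, and by -0.85 ± 0.13 (adjusted p = 3.66e-06) from day 7 to 13 in the contralateral horn.

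Markers of other compartments moved at the same steps. Of 16 epithelial markers, 9 rose and 2 fell in the ipsilateral horn from day 5 to 7, and 4 rose and 5 fell from day 7 to 13. Their summed level over the libraries was 1107 to 1659.5 CPM on day 5, 1579 to 2103 CPM on day 7 and 1612 to 2409.7 CPM on day 13. In the contralateral horn 5 rose and 2 fell, then 4 rose and 4 fell, with summed levels of 1667 to 2198, 1658 to 2336 and 1854 to 2598 CPM on days 5, 7 and 13. CLDN7, an epithelial claudin, changed by 1.33 ± 0.17 (adjusted p = 4.3e-07) at the first ipsilateral step. Of 12 stromal markers, none rose and 8 fell at the first ipsilateral step, with summed levels of 25056 to 35602 CPM on day 5 and 13256 to 26251 CPM on day 7. At the second step 1 rose and 1 fell, and the contralateral counts were none and 4, then 1 and 2. Of 9 smooth muscle markers, none rose and 8 fell at the first ipsilateral step and 1 rose at the second, with none and 2 and then 1 and none in the contralateral horn. The 9 immune markers gave no call at these steps by edgeR (unadjusted p below 0.05 for 1 marker at the first contralateral step), and the 8 endothelial markers gave none at the first step, then 2 higher in the ipsilateral and 3 in the contralateral horn. The part of these shifts in the ciliary values was not tested.

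Proliferation markers were high on days 5 and 7 and lower afterwards. Of the 10 markers, 2 rose in the ipsilateral and 1 in the contralateral horn from day 5 to 7, and 9 fell in each horn from day 7 to 13. TOP2A, the topoisomerase of dividing cells, changed by -4.25 ± 0.61 (adjusted p = 1.11e-06) at that step in the contralateral horn. Their summed level was 426 to 699, 586 to 898, 215 to 420.4 and 127 to 279 CPM on days 5, 7, 13 and 16 in the ipsilateral horn, so that the day 7 and day 13 groups did not overlap. MCIDAS and CCNO were low on day 7 outside 5-117 and 6-338, the libraries where they were highest. The median proliferation level was also the highest of its group in those libraries (2.09 and 2.12). Whether MCIDAS and CCNO part from proliferation on day 7 was not tested. Of the 3 steroid receptor genes, 1 rose and 1 fell at the first step and none rose and 2 fell at the second, in each horn; PGR, the progesterone receptor, changed by -1.05 ± 0.25 (adjusted p = 0.00104) at the second contralateral step. OVGP1 rose from day 7 to 13 in the contralateral horn (0.71 ± 0.19, adjusted p = 0.003896), and in the ipsilateral horn it fell from day 5 to 7 (-0.50 ± 0.19, adjusted p = 0.0446) and rose from day 7 to 13 (0.96 ± 0.19, adjusted p = 0.000167). From day 13 to 16 these lists gave few calls: 1 of 35 intraflagellar transport genes and 2 of 18 Notch genes higher and 1 of 10 proliferation markers lower in each horn, and 1 epithelial marker lower in the contralateral horn.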

How the data were processed

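RNA-seq of bovine endometrium gave 40 libraries in 8 groups of 5, with 20 tags that each occur in both horns and were taken as those of heifers. The deposited table holds raw counts of reads per named gene, whole numbers used as they stand. Per the labels' protocols, total RNA from homogenised endometrium was extracted with Trizol, treated with DNase and made into libraries with Illumina's TruSeq stranded mRNA kit. Per the submitters' processing notes, FastQC, HISAT2 and featureCounts were used with the genome build UMD3.1. Their versions, and whether counting used strand, are not given in the sources used here, so reads shared with overlapping genes or close copies cannot be separated. No coordinates are printed, because the gene table at hand is of another build, ARS-UCD2.0, and was used for names and neighbours alone. It matched 34 of the 36 listed names, some through synonyms.

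A row of mitochondrial DNA (0.0812 to 0.578% of reads) was left out, 2 names occurred more than once, and 27 names had been turned into dates. Genes were filtered with filterByExpr, scaled by TMM and tested with the quasi-likelihood test of edgeR 4.0.16 (limma 3.58.1, R 4.3.3) on all 40 libraries with a mean for each group. P-values were adjusted by Benjamini-Hochberg over 20356 genes, and passed means an adjusted p below 0.05. Log2 CPM uses a prior count of 0.5, and CPM are per TMM-scaled library. The scripts were tested on simulated data. Totals of about 27026000 to 64365000 reads set the counting precision. The tests weigh a difference against the spread between libraries within groups, with an estimate for each gene shared by all groups. In the main fit, libraries of the same tag were treated as independent. No 2 libraries were identical.

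The members and all lists were chosen with earlier results of these data known. Every member is accounted for by role. Full statistics are given for up to 8 members that passed in a comparison, by size of change, and always between days for FOXJ1, MCIDAS, CCNO, MYB, RFX2 and RFX3, and of each other list up to 4 members with the lowest p are named. Alternatives were DESeq2 1.42.0, RLE scaling, no filter, the compared groups alone, each library left out in turn, and for the horns a replicate block, the microRNA and tRNA share or the log2 total as a covariate. Figures were drawn with matplotlib 3.10.9.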

Additional observations from a re-analysis of the deposited data

Results flagged for a closer look

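In 31 of the 272 sets of 5 libraries (34 genes in 8 groups) the highest or lowest library lay apart from the other 4 by Dixon's test. Chance gives about 1 in 20 such sets if values are normally distributed, which was not tested for these CPM. Sets of the same library are not independent. The sets of MCIDAS on ipsilateral day 13 and of CCNO on contralateral day 13 lie apart because every other library of the group was at 0. The 31 came from 11 libraries.

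The ipsilateral day 7 library 5-117 stood above the rest of its group for 12 genes. It held 1.47 CPM of MCIDAS, 2.40 CPM of CCNO, 28.1 CPM of RFX2 and 66.4 CPM of RFX3 among the regulators. Among axoneme genes it held 12.9 CPM of ARMC4, 64.0 CPM of WDR78, 40.3 CPM of RSPH4A, 9.56 CPM of RSPH9, 136 CPM of HYDIN, 43.9 CPM of TEKT1 and 17.6 CPM of TEKT2, and it held 37.8 CPM of the assembly factor LRRC6. The contralateral day 7 library 6-338 stood above its group for 6 genes, with 1.97 CPM of MCIDAS, 4.30 CPM of CCNO, 43.6 CPM of RSPH4A, 11.4 CPM of RSPH9, 23.1 CPM of TEKT2 and 58.4 CPM of CFAP126.

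On day 5 the ipsilateral library 3-175 stood above its group for 6.03 CPM of MCIDAS, 11.5 CPM of CCNO and 42.8 CPM of MYB. The ipsilateral library 1-315 stood below its group, with 14.0 CPM of WDR78 and 7.47 CPM of SPAG6, and the contralateral library 1-315 stood above its group with 208 CPM of TPPP3.

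On day 13 the ipsilateral library 5-140 held the only read of MCIDAS in its group (0.0324 CPM), and the contralateral library 4-1314 held both reads of CCNO (0.0613 CPM). Ipsilateral library 5-167 was high for DNAH11 at 11.9 CPM, and 8-275 was high for RSPH9 at 4.24 CPM. Library 6-203 of that group was low for DNAI2 at 4.74 CPM and for CCDC40 at 21.9 CPM. On day 16 the ipsilateral library 7-107 was high for SPAG16 at 4.62 CPM.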

How the results depend on the processing

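Of the 46 calls for single members, 13 held under each alternative run and none reversed. Without the day 7 libraries 5-117 and 6-338, a setting chosen after seeing the data, the count of members passed moved from 8 to 3 (1 higher, 2 lower) from day 5 to 7 and from 6 to 2 from day 7 to 13 in the ipsilateral horn. In the contralateral horn it moved from 0 to 2 (both lower) and from 6 to 1, over any day from 15 to 7 ipsilateral and from 5 to 8 contralateral, and between the horns on day 7 from 0 to 1. With no filter on low counts the first ipsilateral step gave 5. DESeq2 gave 11 for the ipsilateral step to day 13, and a fit to the compared groups alone gave 2 for the contralateral step to day 13. On day 5 between the horns, no filter gave 0, the compared groups alone gave 4 (2 higher, 2 lower), and the microRNA and tRNA covariate gave 0, as it did for the average over days, where 4 had passed. The cause of these shifts was not tested beyond the samples and genes each setting leaves out.

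Leaving out 1 library at a time gave 3 to 12 calls for the first and 2 to 11 for the second ipsilateral step, 0 to 2 and 1 to 14 for the contralateral ones, 6 to 17 over any ipsilateral day and 4 to 7 over any contralateral day. Between the horns it gave 0 to 3 on day 5, 0 to 2 on day 7 and 4 to 5 on average. Correlations between the horns of a tag were above 0.1 for 5 of 20 tags (median -0.0472), so the tag served only as an alternative: with it as a replicate block, day 5 between the horns gave 1 call, which was lower and neither of the 2 reported, the average gave the same 4, and days 7, 13 and 16 gave 0 as before.

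The steps from day 13 to 16 and the horn differences on days 13 and 16 gave 0 under each alternative. Depth limits MCIDAS and CCNO, at 8 reads or fewer per group from day 13 on.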

Other observations

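Averaged over the 4 days, 19.6% of all genes were higher and 18.6% lower in the ipsilateral horn, and calls for ciliary genes outside the members are read against these shares. The share called higher was below that of all genes in the largest list and close to it in the dynein list. It was above that of all genes in the other regulators and in the intraflagellar transport and BBSome genes. In the other regulators the share called lower was above that of all genes as well. Of 63 other axoneme genes 7 were higher and 2 lower, with a median log2 difference of -0.05. Of 20 other axonemal dyneins and assembly factors 4 were higher and 1 lower, with a median of -0.08. Of 15 other regulators of multiciliation 5 were higher and 4 lower. In the same comparison the epithelial markers gave 10 lower and none higher of 16, the Notch genes 1 higher and 6 lower of 18, and the stromal markers 6 lower of 12.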
